A study of Danio rerio with 2 samples.

Results

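The short arm of chromosome 4 was taken as the first 25 Mb of that chromosome in the zebrafish assembly Zv10, and its members were the ATAC-seq peaks whose summit lay below position 25000000, at any score. There were 828 such peaks, out of 4679 on chromosome 4, 82203 on chromosomes 1 to 25 and 84715 in the whole list. The samples were wild-type Tubingen embryos at 4 hpf, untreated, in 2 biological replicates with about 300 embryos per tube. Open chromatin was measured with Tn5, an enzyme that cuts accessible DNA and tags the cut ends with adapters. The authors pooled both replicates into 1 peak list, made from fragments of 30 to 120 bp, which are shorter than the DNA wrapped on a nucleosome. The list therefore holds no value per replicate, there is no control or second stage, and depth is unknown, so the values below are descriptions with no test. Chromosomes and peaks are not replicates.

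Zebrafish embryos at 4 hpf have just begun transcription of their own genome, and the accessible sites of that stage include promoters and enhancers bound by maternally supplied factors such as Pou5f3, Nanog and Sox19b. Chromosome 4 is known for an unusual long arm, which is late replicating, heterochromatic, rich in repeats and home to large families of zinc finger and NLR genes as well as 5S rRNA genes. The short arm is generally regarded as ordinary euchromatin. The list holds no centromere, so the end of the arm at 25 Mb is the limit used here and was not checked against the data. No gene annotation or genome sequence of Zv10 was used, and places are therefore given by position without gene names or sequences.

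The short arm had few accessible sites, and those it had scored high. It held 33.1 peaks per Mb, the lowest value among the first 25 Mb of the 25 chromosomes. The other 24 chromosomes ranged from 37.4 on chromosome 8 to 85.2 on chromosome 12, with a median of 61.2. Peaks covered 3.42% of the short arm, against a median of 6.24% and a lowest value of 3.43% on chromosome 8. The strength of a peak is given by a score from the authors' peak calling, whose scale is not named, and the lowest score in the list is 20. The median score on the short arm was 252, with the middle 50% of peaks between 122 and 603. The medians of the other 24 chromosomes lay between 105 and 166, all below that of the short arm. Scores of single peaks overlapped, with the middle 50% on chromosome 8 between 93 and 383. Chromosome 8 stood second in both density and median score.

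**Figure D1:**
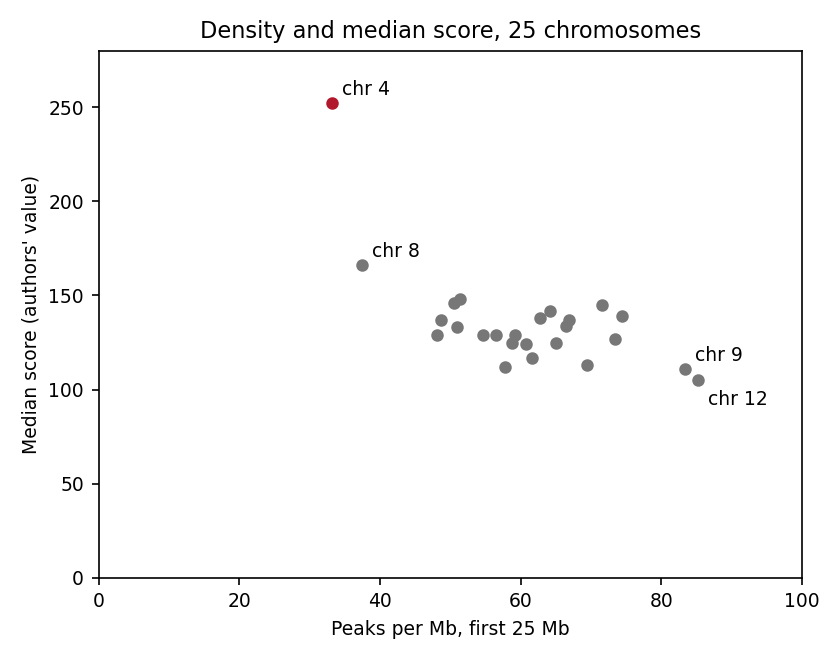
Peaks per Mb (x axis) and median peak score (y axis, the authors' value) in the first 25 Mb of each chromosome, 1 point per chromosome. Chromosome 4 stands at 33.1 peaks per Mb and a median score of 252, while chromosome 8, the nearest in density, stands at 37.4 and 166.

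The position of the window on the other chromosomes did not set this order, while the window on chromosome 4 was kept at its first 25 Mb. Among 676 windows of 25 Mb placed in steps of 1 Mb over the other 24 chromosomes, which overlap each other, the density ranged from 37.3 to 92.6 peaks per Mb and the median score from 105 to 173. None of the 676 windows was as sparse as the short arm or had as high a median score.

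The deficit was deepest among weak peaks and shrank with rising score. Peaks scoring under 100 numbered 6.56 per Mb on the short arm, against a median of 22.7 and a lowest value of 10.1 on the other chromosomes. Peaks scoring from 100 to below 200 numbered 7.56 per Mb, against a median of 18.5 and a lowest value of 11.4. In both classes the short arm was below all of the other 24 chromosomes. Between 200 and 500 a smaller deficit remained, with 8.52 peaks per Mb against a median of 11.6, and only chromosome 8 held fewer (8.40). Counted with the strong peaks described next, all peaks scoring at least 200 numbered 19.0 per Mb on the short arm and a median of 19.4 elsewhere, which put the short arm 10th from the lowest of 25. With peaks scoring at least 200 alone, the density of the short arm was 0.977 of the median of the others, while with all peaks it was 0.541.

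Strong peaks were as frequent as elsewhere or more so. Between 500 and 1000 the short arm held 6.96 peaks per Mb, against a median of 5.16, and only chromosome 22 held more (7.56). At 1000 and over it held 3.52 per Mb, against a median of 3.04. A score of at least 500 was reached by 262 of the 828 short-arm peaks, or 31.6%, against 13.9% of the 36988 peaks in the first 25 Mb of the other chromosomes and at most 20.0% on any of these. A score of at least 200 was reached by 57.4%, against 32.4%. Both the low number of weak peaks and the number of strong peaks enter these shares. On the rest of chromosome 4, 28.3% of peaks scored at least 500, so a high share was not particular to the short arm.

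**Figure D2:**
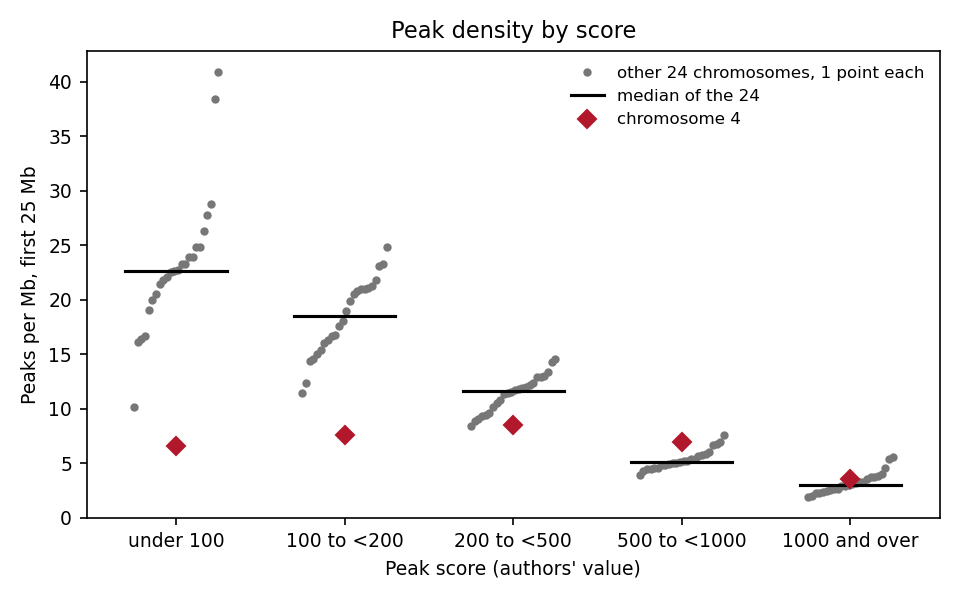
Peaks per Mb in the first 25 Mb (y axis) by class of peak score (x axis, the authors' value), with 1 grey point for each of the other 24 chromosomes, a line at their median and a diamond for chromosome 4. Chromosome 4 lies below all others in the classes under 200, at 6.56 and 7.56 peaks per Mb, second from the lowest between 200 and 500, at 8.52, and above the median in the classes from 500 upward.

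The scores are not continuous, and this bears on comparisons between chromosomes. On each chromosome they fell on a fixed ladder of values, and the ladders differed from chromosome to chromosome. All of the 41 values up to 250 found on the short arm were among the 42 found on the rest of chromosome 4, so both arms share 1 ladder. Counting values carried by at least 3 peaks, there were 24 values between scores of 100 and 250 on chromosome 4 and 21 to 23 on the others. Of the peaks scoring up to 250, at least 99.8% on every chromosome carried such a value. Equal scores on different chromosomes therefore need not stand for equal read depth. Medians were also counted in steps of each chromosome's own ladder, with the first value from 100 upward as step 1. That of the short arm lay at step 25, against steps 1 to 11 on the other chromosomes. A score of 252 lay at steps 21 to 23 on those chromosomes, so the steps follow the scores closely. The step count is therefore no separate check on the high median. What 1 step stands for is not named in the list, and the part of the ladder in the number of weak peaks called was not tested. Comparisons inside the arm use a single ladder.

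Along the arm, the 25 bins of 1 Mb differed widely, from 5 to 98 peaks. In 22 of the 25 bins the density was below the median of the other chromosomes at the same distance from the start. The median score exceeded that of the others in 24 of the 25 bins. A density below that median was thus found over most of the arm, and the excess in score was uneven. Bins sparser than all of the other 24 chromosomes at the same distance lay mostly beyond 17 Mb. Of the 23 short-arm bins with at least 10 peaks, 14 had a median score above 190, the 95th percentile of 600 bins on the other chromosomes. Across the 25 bins, density and median score had a Spearman's rho of 0.500, so that denser bins of the arm tended to score higher. Over the 600 bins of the other chromosomes rho was 0.123. Across the first 25 Mb of the 25 chromosomes it was -0.441, and across the 24 without chromosome 4 it was -0.368. The short-arm bins are neighbouring parts of 1 chromosome in 1 pooled list, and 2 of them hold under 10 peaks.

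**Figure D3:**
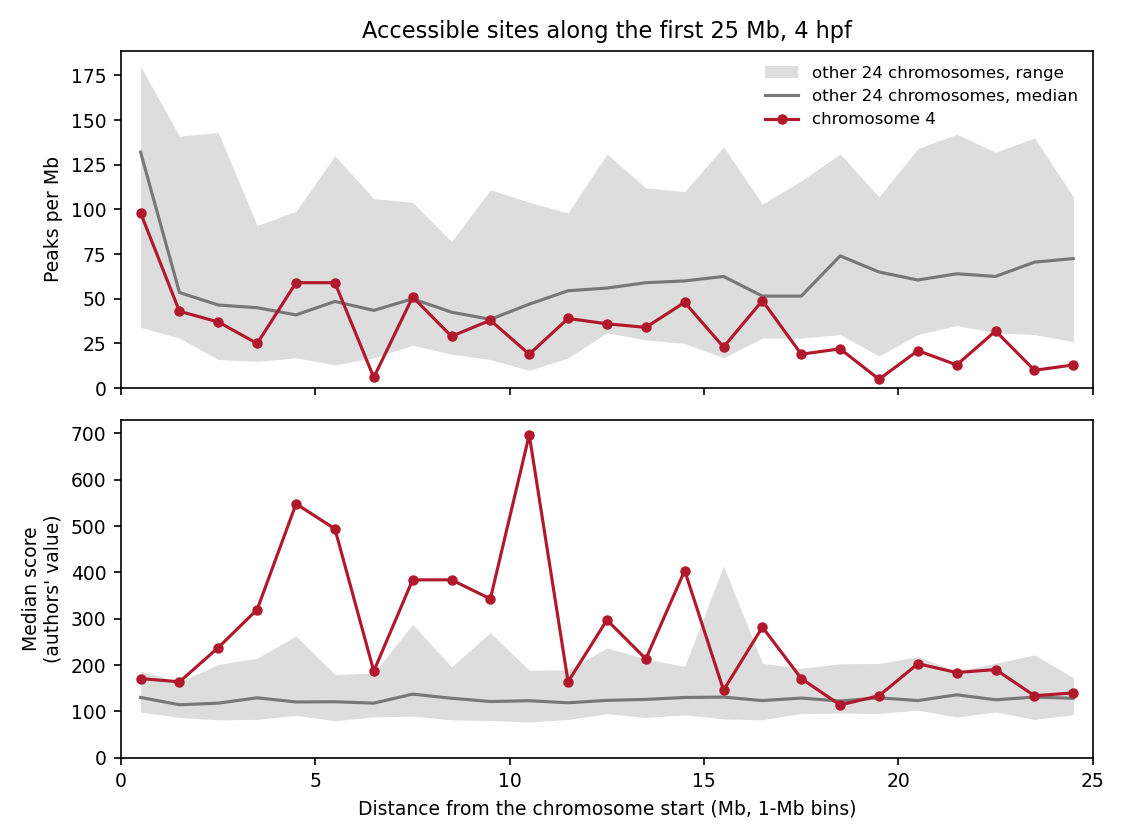
Peaks per Mb (upper panel) and median peak score (lower panel, the authors' value) in 1 Mb bins by distance from the chromosome start. The line with points is chromosome 4, the grey line is the median and the grey band the range of the other 24 chromosomes. Chromosome 4 reaches median scores of 548 and 494 from 4 to 6 Mb and of 697 from 10 to 11 Mb, and from 17 to 25 Mb holds 5 to 32 peaks per bin.

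The densest bin was the first, with 98 peaks from 0 to 1 Mb and a median score of 171. The first Mb was dense on the other chromosomes too, with a median of 132 peaks, and 17 of the 24 held more peaks there than chromosome 4. From 1 to 4 Mb there were 105 peaks with a median score of 197, against medians of 155 peaks and a score of 122 elsewhere.

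In the stretch from 4 to 6 Mb, accessible sites were many and strong, and many of them lay in a few clusters. It held 118 peaks, or 59.0 per Mb, and only 5 of the other 24 chromosomes held more at this distance. Its median score was 508, and the middle 50% of its peaks lay between 252 and 784. The other chromosomes had medians of 104 to 198 there, all below it. The limits of the stretch were chosen after its values were seen, which favours the short arm in these comparisons. Scores of at least 500 were found for 62 of the 118 peaks (52.5%), against 3 to 21 peaks on the other chromosomes. Only 5 peaks scored under 100. The peaks were also wide, with a median width of 1085 bp against 615 to 790 bp on the others, and they covered 8.15% of the stretch. They did not fill it evenly. Gaps of over 50 kb took up 50.0% of it, against a median of 42.7% elsewhere, and 9 of the 24 were higher. Joined across gaps of at most 12500 bp, the peaks gave 31 regions, against a median of 41. Of these, 4 held at least 10 peaks each, with 32, 12, 19 and 17. Bins with that many strong peaks did occur elsewhere, since 13 of the 600 bins on the other chromosomes held at least 29 peaks scoring 500 or more, the number in the bin from 5 to 6 Mb. No bin of the 600 reached a median score of 494, the value of that bin, and the highest was 414, on chromosome 2 from 15 to 16 Mb.

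The bin next to it was nearly empty. From 6 to 7 Mb there were 6 peaks, below the lowest of the 600 bins on the other chromosomes (10 peaks). After a peak that ended at 6800930, the next began at 7513051, and from 7 to 17 Mb there were 366 peaks, or 36.6 per Mb. The median score of this stretch was 297, against 99 to 166 on the other chromosomes. The highest median score of any bin of the arm, 697, was reached from 10 to 11 Mb, where only 19 peaks were found. Of these 19 peaks, 10 scored at least 500 and 6 under 200. Strong peaks were gathered there in 1 joined region of 8 peaks, from 10766421 to 10793160, which held 7 of the 10 and was named after its values were seen.

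Beyond 17 Mb the arm was sparse in weak and strong peaks, and its scores stood out less than those before it. From 17 to 25 Mb there were 135 peaks, or 16.9 per Mb, against 43.8 to 97.3 on the other chromosomes. The sparsest bin of the arm, from 19 to 20 Mb, held 5 peaks. The lowest median score of the arm, 114, was found from 18 to 19 Mb. The median score from 17 to 25 Mb was 158, against a median of 129 and a range of 111 to 160 on the others, of which 1 was higher. Peaks scoring at least 200 numbered 6.50 per Mb, against 12.9 to 29.4, and those scoring at least 500 numbered 3.25 per Mb, against 4.75 to 13.5, so the stretch was below all others in strong peaks too. As a share of its peaks, 19.3% scored at least 500, against a median of 14.9% and a range of 8.82% to 19.9%. Of the 88 short-arm peaks scoring at least 1000, 82 lay in the first 17 Mb, which held 693 of all 828 short-arm peaks. The limits at 4, 6, 7 and 17 Mb were chosen after the values were seen. In the first 17 Mb alone, peaks scoring at least 200 numbered 24.9 per Mb, against a median of 18.6, with 2 chromosomes higher. Those scoring at least 500 numbered 13.9 per Mb, against a median of 7.38, with none higher. The ordinary density of peaks scoring at least 200 over the whole arm thus joins an excess and a deficit. The first 17 Mb had a density of 40.8 peaks per Mb in all, with 2 chromosomes lower, and a median score of 289, with none higher. Being the sparsest of the 25 chromosomes thus rests on the part beyond 17 Mb, and having the highest median score does not.

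**Figure D4:**
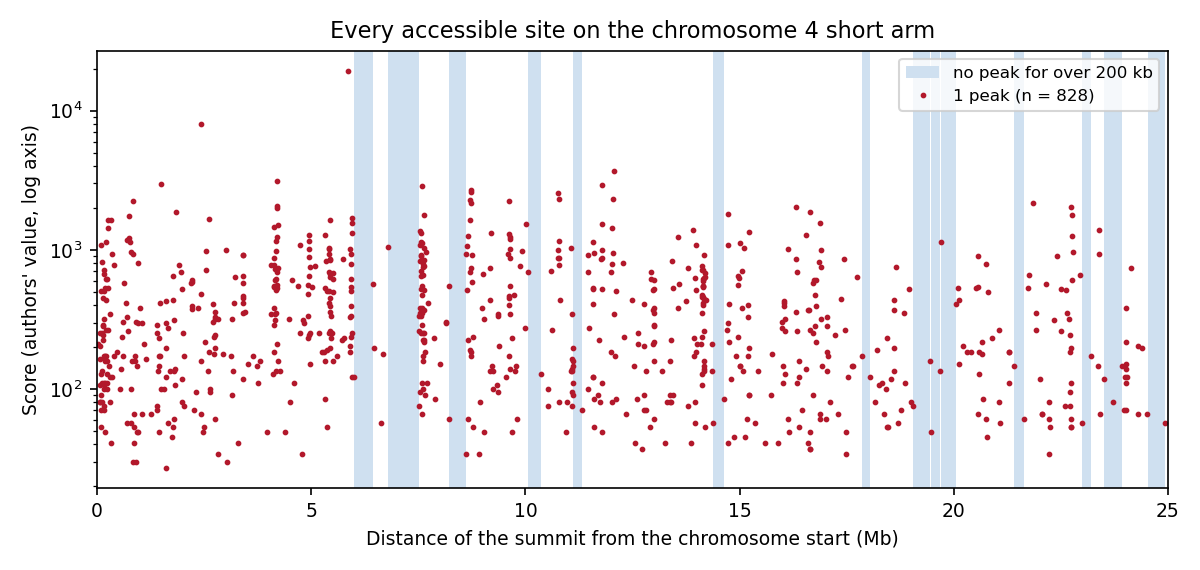
Score of each of the 828 peaks (y axis, the authors' value, log axis) by distance of its summit from the chromosome start (x axis, Mb). Shaded bands are the 15 stretches of over 200 kb with no peak, and vertical stacks of points are groups of closely spaced peaks, such as those after 7.5 Mb.

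Long stretches of the short arm held no peak, and short gaps made up an ordinary share of all gaps. The median distance between the edges of adjacent peaks, 6180 bp, was close to that of the other chromosomes (median 6160 bp). The 90th percentile was not, at 87.6 kb against 26.9 to 72.4 kb. Stretches of over 50 kb with no peak numbered 152 and took up 71.6% of the arm, against 18.9% to 59.8% on the other chromosomes. With only peaks scoring at least 200, the share was 82.9% against 70.1% to 84.4%, and the short arm no longer stood first. Stretches of over 100 kb took up 46.4%, against 5.76% to 35.3%. Gaps of up to 5 kb made up 48.5% of all gaps, inside the range of 38.1% to 51.4% on the others. Intermediate gaps were scarce, with 11.6% of all gaps between 5 kb and 12500 bp against 17.5% to 25.7%, and 21.6% between 12500 bp and 50 kb against 22.5% to 30.8%. Chromosome 8 was again the nearest in both classes of long stretch. Whether unresolved sequence of the assembly or sequence that reads cannot be placed on lies in the long stretches was not tested.

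**Figure D5:**
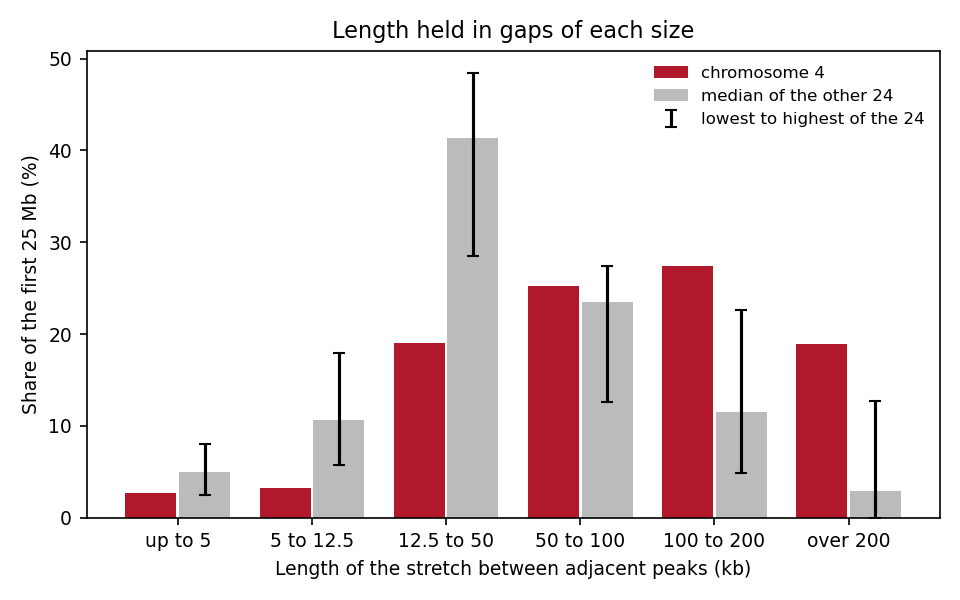
Share of the first 25 Mb (y axis, percent) held in stretches between adjacent peaks, by length of the stretch (x axis, kb), for chromosome 4 and for the median of the other 24 chromosomes, with bars from the lowest to the highest of the 24. Chromosome 4 has 3.24% in gaps of over 5 kb to 12500 bp and 19.0% in gaps of over 12500 bp to 50 kb, below all others, and 27.4% and 19.0% in gaps of over 100 to 200 kb and over 200 kb, above all others.

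The longest stretch with no peak ran over 712 kb, from 6800931 to 7513050, and no stretch in the first 25 Mb of the other 24 chromosomes was longer than 423 kb. The peak before it scored 1045 and the peak after it 335. The next on the short arm was 442 kb long, from 6001251 to 6443190, at the end of the strong stretch described above. The third, 411 kb from 24527221 to 24937780, lay at the end of the arm between peaks scoring 66 and 57. The fourth ran from 8225311 to 8608820 (384 kb) and the fifth from 19061591 to 19442900 (381 kb). There were 15 stretches of over 200 kb on the short arm and 0 to 12 on each of the others. Strong peaks thus bordered some of the empty stretches and weak peaks others.

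When peaks with gaps of at most 12500 bp were joined, the short arm gave 330 regions, of which 209 held a single peak. The other chromosomes gave 410 to 568 regions. Single peaks made up 63.3% of the regions, against 34.0% to 54.4%. Peaks with no neighbour within 50 kb numbered 59, or 7.13% of the short-arm peaks, against at most 5.13% elsewhere. These lone peaks had a median score of 146, while the peaks with a neighbour within 12500 bp had 304. Lone peaks scored lower than peaks with a neighbour on 19 of the other 24 chromosomes too, and chromosome 8, with 190.5 and 166, was among the 5 exceptions.

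At least 10 peaks were held by 11 regions of the short arm, which carried 249 of the 828 peaks, or 30.1%, against a median of 25.1% and a range of 15.9% to 37.9% on the other chromosomes. The last of the 11 began at position 14106771, so none lay beyond 17 Mb. Their median scores ranged from 137 to 918, and 6 of the 11 had a median of at least 500. On the other chromosomes 16 of 560 such regions, or 2.86%, had a median that high.

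The 2 largest regions held 46 peaks each and differed in score. One lay near the chromosome end, from 82831 to 251380, with a median score of 197.5 and 13 peaks scoring at least 500. The other ran from 7513051 to 7653350, right after the longest empty stretch, with a median score of 384 and 21 peaks scoring at least 500. The third region ran from 4114371 to 4217810 and held 32 peaks with a median score of 580, of which 22 scored at least 500. The fourth, from 14106771 to 14189190, held 29 peaks with a median score of 459 and a highest score of 918, of which 12 scored at least 500. The fifth, from 5408511 to 5453940, held 19 peaks that covered 65.5% of its 45.4 kb, with a median score of 503. A pair of smaller regions, named after their values were seen, marked the ends of the range in score. The 11 peaks from 8698211 to 8742020 had a median score of 918, and the 12 peaks from 11074161 to 11118750 had a median of 137 with none at 500 or more.

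Most widths on the short arm were ordinary. The median width was 740 bp, equal to the median of the other chromosomes, which ranged from 700 to 780 bp. On every chromosome the lowest width was 500 bp. Peaks of at most 600 bp made up 28.7% on the short arm, against 25.2% to 32.3%. This common floor limits what equal medians can show. The upper quartile was 1200 bp against 960 to 1150 bp, and 31.8% of the peaks were wider than 1 kb, against 27.3% over all peaks in the first 25 Mb of the others and at most 31.2% on any of these. Very wide peaks were rare. Only 2 were wider than 5 kb, as on chromosome 8, while the other chromosomes held up to 35. Both of those on the short arm lay near the chromosome start, from 201781 to 212860 (11.1 kb, score 1143) and from 244761 to 249800 (5.04 kb, score 1639). The next 3 in width were 4.83 kb and 4.64 kb, both in the region that begins at 8698211, and 4.31 kb from 16320661 to 16324970. The higher scores were not confined to wide peaks. Peaks of at most 600 bp had a median score of 149, against 82 to 115 on the other chromosomes. Those of over 600 and up to 1000 bp had 245, against 99 to 160, and those wider than 1 kb had 503, against 156 to 280. At each width the short arm was therefore above all of the other 24.

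The number of extreme scores on the short arm was ordinary. The highest, 19419, belonged to a peak of 990 bp from 5848901 to 5849890 that stood alone, with 93.1 kb before it and 54.8 kb after it free of peaks. It was the only short-arm peak to score at least 10000, while the other chromosomes held 0 to 11 and 12 of these 24 held 0 or 1. The second, 8081, lay from 2423321 to 2424900. The third, 3693, was a peak of 4.18 kb from 12066481 to 12070660. The remaining 7 of the 10 highest scored between 2553 and 3139, and 2 of them adjoined each other in the region that begins at 8698211 (from 8721741 to 8726570 and from 8726861 to 8728260). The 10 highest peaks held 13.1% of the summed score of the arm, against 6.17% to 79.9% on the other chromosomes.

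At the 25 Mb limit, the last 3 peaks inside scored 197, 66 and 57, and the first 3 outside scored 100, 34 and 566. The 1 Mb bins from 25 to 32 Mb held 10 to 92 peaks each, with median scores of 97.5 to 200. Taken as a whole, the rest of chromosome 4 held 74.6 peaks per Mb with a median score of 224. As a whole it thus shared the high scores of the short arm and not its low density. It differed from the short arm in wide and extreme peaks too. Of its 3851 peaks, 139 were wider than 5 kb and 35 scored at least 10000, against 2 and 1 of the 828 short-arm peaks.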

How the data were processed

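Paired-end reads of 150 bp were mapped by the authors to Zv10. Novoalign (3.8, per the labels' list of tools) placed reads with several matches at random, and SAMtools joined technical replicates. Peaks were called by the Multi-Replica Macs ChIPSeq Wrapper (cutoff 2) from fragments of 30 to 120 bp, after scaling to the replicate of smaller depth. The word nodedup in the peak names is taken to mean that duplicates were kept. The deposited list gives positions, a summit and a score per peak. The columns for fold enrichment, p and q hold only 0 and were not used. Depth is unknown. Peaks were counted by summit, lengths were the full 25 Mb, and starts are counted from 1. Gaps were measured between peak edges, the pieces before the first and after the last peak included in the shares of length. The members and lists were chosen with earlier results of these data known.

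The places named by rule were the 10 highest-scoring peaks, the 5 widest, the 5 joined regions with the most peaks, the 5 longest stretches with no peak and the extreme 1 Mb bins. Peak counts, median score and width, gap lengths, bin counts and the joining of peaks were tested on simulated data. Correlations, ladder counts and intervals were not tested in this way. Alternatives were minimum scores of 40 and 200, leaving out scores of at least 10000, the first 20 Mb, leaving out the first 1 Mb, and the last 25 Mb of the other chromosomes. Analyses used numpy 2.4.6 and pandas 2.3.3 under Python 3.11.15, with matplotlib 3.10.9 for figures and scipy 1.17.1 for intervals.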

Additional observations from a re-analysis of the deposited data

How the results depend on the processing

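The density ratio of 0.541 between the short arm and the median of the other 24 chromosomes was 0.977 with only peaks scoring at least 200 and 0.611 in the first 20 Mb. In the first 20 Mb the short arm, at 36.95 peaks per Mb, was 2nd from the lowest of 25, and the lowest held 31.25. Without 17 to 25 Mb, an alternative chosen after seeing the data, the density ratio was 0.680. The ratio of median scores, 1.95, was 1.24 with only peaks scoring at least 200, which trims the weak peaks of every chromosome. It was 1.74 without 4 to 6 Mb and 2.26 without 17 to 25 Mb, both chosen after seeing the data. The share of length in long gaps, 71.6% against a median of 37.0%, was 82.9% against 78.2% with only peaks scoring at least 200. It was 46.4% with gaps of over 100 kb and 83.8% with gaps of over 25 kb, which follows from the length itself. The ratio of median widths was 1.00 and stayed between 0.967 and 1.03. A minimum score of 40, leaving out peaks scoring at least 10000 and leaving out the first 1 Mb kept each value inside its 95% binomial interval. That interval treats peaks, or pieces of 50 kb for the share of length, as independent, which they are not. Each of these 3 alternatives also keeps most of the same peaks, so staying inside the interval shows little. The last 25 Mb of the other chromosomes kept the 3 ratios inside theirs. This alternative cannot move the share in long gaps, a value of the short arm alone, but the others then ranged from 23.1% to 57.0%. Every 25 Mb window of the other chromosomes was used for the density and median score ratios only, and both stayed inside their intervals. No paired analysis was possible because the list has 1 group and no value per replicate, and for the same reason neither replicate could be left out. Since depth is unknown, the number of accessible sites missed on the short arm cannot be stated.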

Other observations

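Bins of like density still differed in score in the middle classes of density, although scores of different chromosomes lie on different ladders. Among 1 Mb bins with 40 to 69 peaks, the 6 on the short arm had median scores of 164 to 548 with a median of 394, and 5 of the 6 lay above the 95th percentile (189) of 254 such bins on the other chromosomes. Among bins with 25 to 39 peaks, the 8 on the short arm had a median of 268, and 7 of the 8 lay above the 95th percentile (184) of 114 bins. Among the sparse bins of 10 to 24 peaks, the 8 on the short arm, of which 6 lay beyond 17 Mb, had a median of 158.5, and only 2 of the 8 lay above the 95th percentile (202) of 31 bins. In the class of 70 to 150 peaks the short arm had 1 bin. Its median score of 171 lay above the median (129.5) and below the 95th percentile (198) of 196 bins.

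Neighbouring peaks on the short arm had related scores. Spearman's rho between adjacent peaks was 0.208, against 0.0256 to 0.194 on the other chromosomes, with the lowest value on chromosome 8. Wider peaks scored higher, with a rho of 0.420 on the short arm and 0.307 to 0.449 elsewhere. These are correlations across peaks of 1 pooled list that share libraries and depth. Summits lay within 10% of the peak width from either edge in 21.6% of short-arm peaks, against 21.0% to 26.1%.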
